A study of Canis lupus familiaris with 12 samples.

Results

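Basement membranes are thin sheets of extracellular matrix that, in brain, wrap the blood vessels and lie between the endothelium, the mural cells and the astrocyte endfeet. A network of type IV collagen and a network of laminin, each a trimer of different chains, are joined in them by nidogen and by the heparan sulphate proteoglycan perlecan. The 10 genes described here encode the 2 most widespread collagen IV chains (COL4A1, COL4A2), 5 laminin chains (LAMA4, LAMA5, LAMB1, LAMB2, LAMC1), nidogen (NID1), perlecan (HSPG2) and the collagen-binding matrix protein SPARC. All 10 were found by symbol among the 31158 gene models of the hippocampal table. COL4A1 and COL4A2 were chosen on their lower values in pacing, so their difference between the arms is given as a description without a test. The other 8 were listed by symbol.

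The samples were hippocampus of beagle dogs, 3 after a sham operation and 3 after 2 weeks of rapid atrial pacing, a way to induce atrial fibrillation. Epicardial fat exosomes of the left atrium, 3 samples per arm, were profiled for microRNA. The labels give no age, sex or medication and do not state that each sample is a separate dog, so p-values measure the spread between these samples, which may be technical. Levels are RPKM, reads corrected for exon length and for library depth, and can therefore be compared between genes.

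Hippocampal libraries held 35003483 to 51789497 assigned reads. Neuronal and hippocampal markers were all measured above the filter (10 of 10 genes). Sham replicates 2 and 3 stood apart from the other libraries on the first 2 principal components, which held 45.3% and 25.5% of the variance. Summed choroid plexus markers ran from 6.57 RPKM in sham replicate 1 to 456 in sham replicate 2, with 77.0 to 160 in pacing. Of these sums TTR alone held 2.46 and 449 RPKM in the 2 sham libraries and 70.5 to 155 in pacing. Under the filter were 7 of these 10 markers. Summed immediate early genes were 54.6 RPKM in sham replicate 2, 27.1 in sham replicate 3 and 13.9 to 15.0 in the other 4 libraries. The differences of COL4A1, COL4A2, LAMC1 and SPARC, and of 7 of the pathway genes named further on, are therefore also given without these libraries. That leaves sham replicate 1 alone in its arm, with no spread measured there, so only the size of the difference is given for these genes.

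SPARC, which binds collagen IV and is made by several brain cell types, was the most abundant of the 10 genes in both arms, at 470 ± 115 RPKM in sham (SD, n = 3 here and below). In sham it was followed by COL4A1 (20.7 ± 4.57), COL4A2 (14.3 ± 2.19), LAMB1 (13.8 ± 0.963) and LAMC1 (12.9 ± 3.82), and the library ranges of neighbours among these 4 overlapped. LAMA4 (3.31 ± 0.705), LAMB2 (2.71 ± 0.811) and NID1 (1.47 ± 0.417) came next, again with overlapping neighbours. HSPG2 (0.431 ± 0.129) and LAMA5 (0.0816 ± 0.0107) were the lowest, each apart from the gene above it. In pacing the order among the middle genes changed, with LAMB1 (11.4 ± 1.05) first, then COL4A1 (10.2 ± 0.521), LAMC1 (9.89 ± 0.684) and COL4A2 (8.16 ± 0.382). The ranges of LAMB1, COL4A1 and LAMC1 overlapped with their neighbours there, and COL4A2 lay apart from LAMC1.

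**Figure D1:**
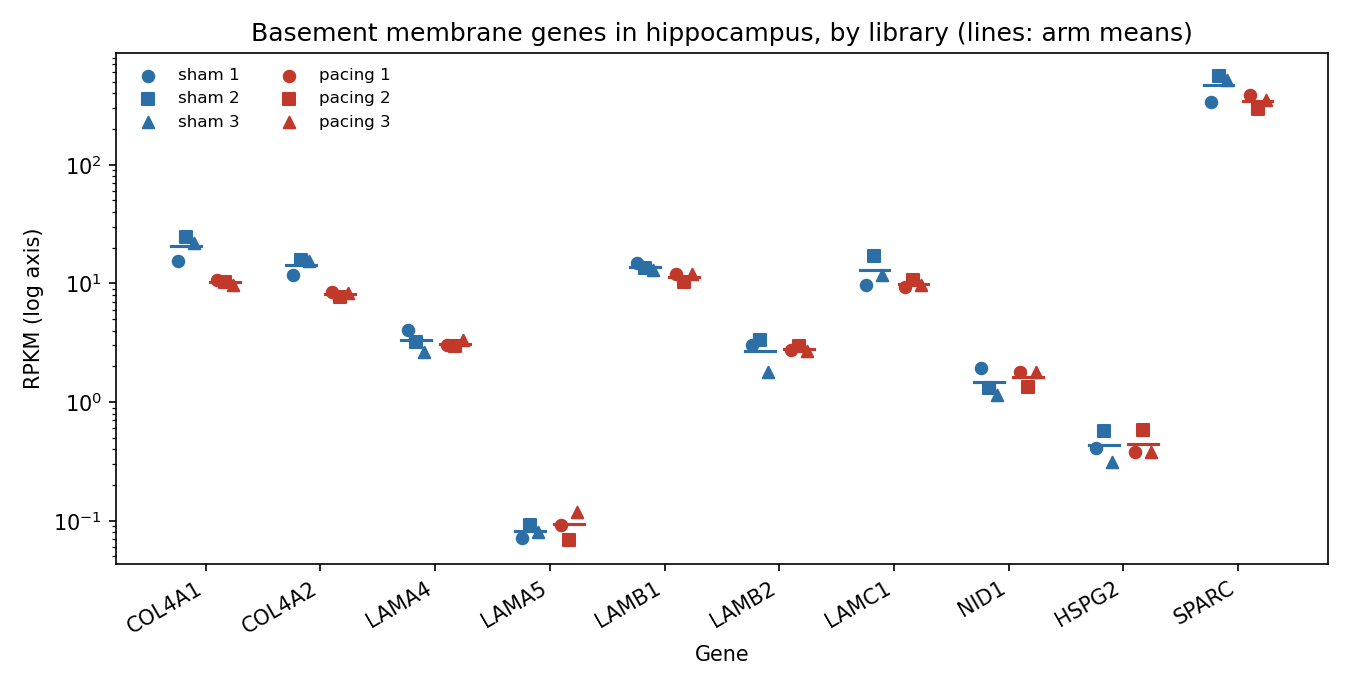
RPKM of the 10 genes (log axis) in each hippocampal library, with sham in blue, pacing in red, 1 marker shape per replicate number and a line at each arm mean. The 3 pacing libraries lie below the 3 sham libraries for COL4A1, COL4A2 and LAMB1, and the arms overlap for the other 7 genes.

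The collagen IV chains assemble with each other into one trimer, and their genes lie side by side. In the deposited table, on sequences named as in the dog assembly CanFam3.1, COL4A1 is on chromosome 22 from 58511210 to 58651949 on the minus strand and COL4A2 from 58656579 to 58820560 on the plus strand, 4629 bases apart. COL4A1 stood at 15.6, 24.5 and 21.9 RPKM in sham replicates 1 to 3 and at 10.8, 10.3 and 9.72 in pacing replicates 1 to 3. Every pacing library was below every sham library, and the pacing values lay closer together than the sham values. The sham mean was 2.02 times the pacing mean, with a log2 difference of -0.92 on the log2(RPKM + 1) scale. COL4A2 stood at 11.8, 15.6 and 15.5 RPKM in sham and at 8.43, 7.72 and 8.32 in pacing. Its arms were also apart, with a sham mean 1.76 times the pacing mean and a log2 difference of -0.73. Among 16090 genes ordered from the lowest difference, COL4A1 was number 55 and COL4A2 number 108.

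These values rest on 7546 reads in pacing and 17507 in sham for COL4A1, and on 5664 and 11460 for COL4A2. As a share of assigned reads the ratio of pacing to sham was 0.4995 for COL4A1 and 0.573 for COL4A2. These ratios restate the difference on which the genes were chosen, and are given as a description. Sham replicate 1 was the lowest sham library for both genes, at 1.52 times the pacing mean for COL4A1 and 1.45 times for COL4A2. Without sham replicates 2 and 3 the log2 difference was -0.56 for COL4A1 and -0.49 for COL4A2.

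The ratio between the collagen IV chains overlapped between the arms. COL4A1 stood at 1.43 ± 0.123 times COL4A2 in sham and 1.26 ± 0.0811 times in pacing. The sum of COL4A1 and COL4A2 was 1.07 ± 0.208 times the sum of the 5 laminin chains in sham and 0.674 ± 0.0265 times in pacing, with no overlap. COL4A1 relative to the geometric mean of 15 endothelial markers was 8.49 ± 1.80 in sham and 4.11 ± 0.266 in pacing, also with no overlap. The endothelial mean itself was 2.45 ± 0.410 RPKM in sham and 2.497 ± 0.101 in pacing. As COL4A1 and COL4A2 were chosen on their lower values in pacing, the lack of overlap in these ratios is not independent of that choice. In bulk tissue, fewer cells of a type and less RNA per cell cannot be told apart.

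**Figure D2:**
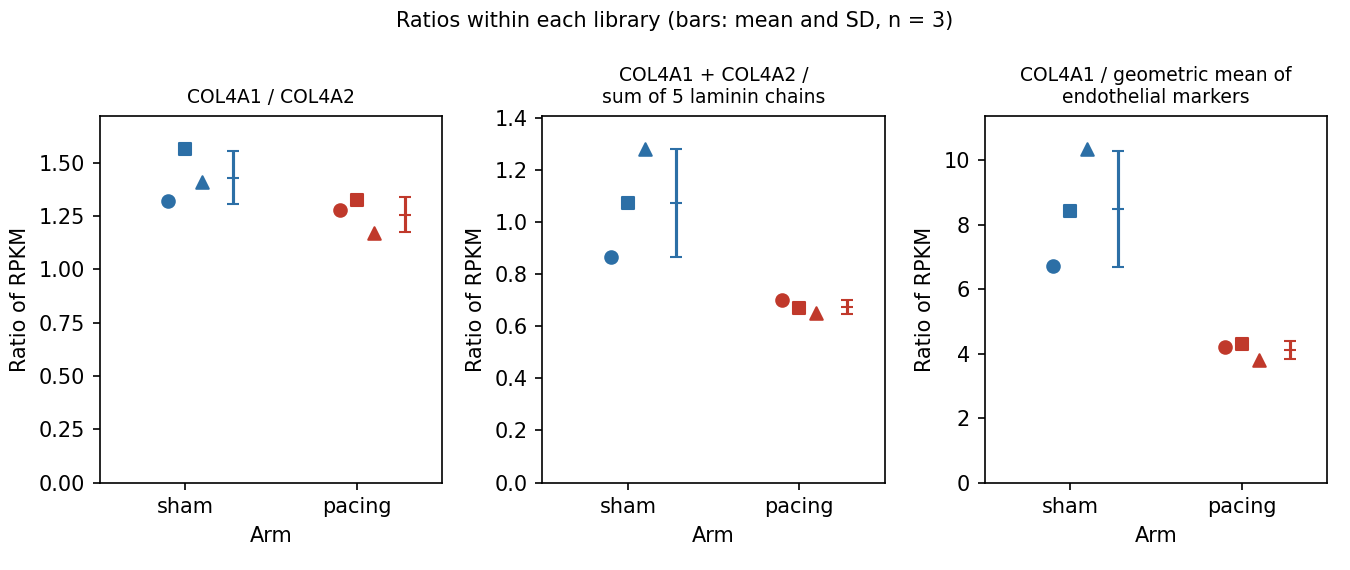
Ratios of RPKM within each hippocampal library, for COL4A1 over COL4A2, both collagen IV chains over 5 laminin chains, and COL4A1 over endothelial markers, with the mean and SD of 3 libraries beside the points. The arms overlap in the first ratio, and in the others every pacing library is below every sham library. The collagen IV genes were chosen on their lower values in pacing, so this is not independent of the choice.

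No marker of vessel cells passed with limma, where 0.0249% of all genes tested passed. Of 15 endothelial markers 9 were higher and 6 lower (median 0.09). With no overlap of the arms 3 were higher (PECAM1, SLC2A1 and MFSD2A) and 1 lower (ROBO4). Of 11 tested mural cell markers 8 were higher (median 0.13), and 2 were higher and 0 lower with no overlap. Of 7 tested fibroblast markers 4 were higher (median 0.05), and 0 were higher and 1 lower with no overlap. Over all genes tested the median was -0.04, and 4.92% were higher and 11.3% lower with no overlap. Summed endothelial markers ran from 62.2 to 65.4 RPKM in pacing and from 47.8 to 65.0 in sham. None of the genes of these 3 lists was at 0 in every library. Of 7 tested ependymal markers 6 were lower and 1 higher (median -0.46). Among them 2 were lower (FOXJ1 and HYDIN) and 1 higher (SPAG16) with no overlap of the arms (all genes tested, 11.3% and 4.92%). Summed ependymal markers ran from 16.2 to 26.9 RPKM in pacing and from 18.7 to 37.8 in sham. Of these sums RSPH1 alone held 11.4 to 20.2 RPKM in pacing and 13.2 to 28.8 in sham. Of the 10 neuronal and hippocampal markers 9 were higher (median 0.30), none with no overlap, and their sum ran from 1664 to 2013 RPKM in pacing and from 1162 to 1903 in sham. No marker of these lists passed with limma either. Summed oligodendrocyte markers ran from 1545 to 1914 RPKM in pacing and from 1113 to 2805 in sham. Astrocyte markers ran from 1946 to 2210 in pacing and from 1698 to 3026 in sham, and microglial markers from 91.1 to 108 and from 78.7 to 136. The part of these cell types, and of ependymal, neuronal, choroid plexus and immediate early genes, in the values of the collagen IV genes was not tested.

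Laminin trimers hold an alpha, a beta and a gamma chain. The beta chain LAMB1 stood at 14.8, 13.6 and 13.0 RPKM in sham and at 12.1, 10.2 and 11.9 in pacing. Every pacing library was below every sham library, and the difference did not pass over all genes tested (log2 difference -0.26, 95% interval -0.50 to -0.01, limma adjusted p = 0.54). The gamma chain LAMC1, shared by most laminins, stood at 9.71, 17.1 and 11.8 RPKM in sham and at 9.32, 10.6 and 9.72 in pacing. Sham replicate 2 was high and sham replicate 1 lay within the pacing range (log2 difference -0.32, interval -0.76 to 0.13, limma adjusted p = 0.629). Without sham replicates 2 and 3 the LAMC1 difference was 0.02.

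LAMA4, the alpha chain of vessel laminins, stood at 4.04, 3.24 and 2.64 RPKM in sham and at 3.05, 2.96 and 3.33 in pacing. The pacing libraries lay inside the sham range (log2 difference -0.05, interval -0.38 to 0.27, limma adjusted p = 0.919). LAMB2 stood at 3.03, 3.32 and 1.79 RPKM in sham and at 2.77, 2.97 and 2.68 in pacing, again inside the sham range (log2 difference 0.06, interval -0.34 to 0.46, limma adjusted p = 0.927). LAMA5, the other alpha chain of vessel laminins, was at 0.0714 to 0.0928 RPKM in sham and 0.0682 to 0.120 in pacing, on 73 and 71 reads. It was under the filter of a mean of 0.5 RPKM, and a fit with no filter gave a log2 difference of 0.02 (interval -0.05 to 0.08, limma adjusted p = 0.873), on a scale that understates changes of so low a gene.

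NID1, which links laminin to collagen IV, stood at 1.94, 1.32 and 1.15 RPKM in sham and at 1.78, 1.33 and 1.79 in pacing. The arms overlapped (log2 difference 0.10, interval -0.25 to 0.45, limma adjusted p = 0.854). HSPG2 stood at 0.413, 0.568 and 0.313 RPKM in sham and at 0.383, 0.583 and 0.377 in pacing. It was under the filter as well, and a fit with no filter gave a log2 difference of 0.02 (interval -0.21 to 0.25, limma adjusted p = 0.964).

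SPARC stood at 340, 557 and 514 RPKM in sham and at 386, 294 and 354 in pacing. Sham replicates 2 and 3 were above every pacing library and sham replicate 1 lay among them (log2 difference -0.42, interval -0.90 to 0.05, limma adjusted p = 0.584). Without sham replicates 2 and 3 the SPARC difference was 0.01.

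**Figure D3:**
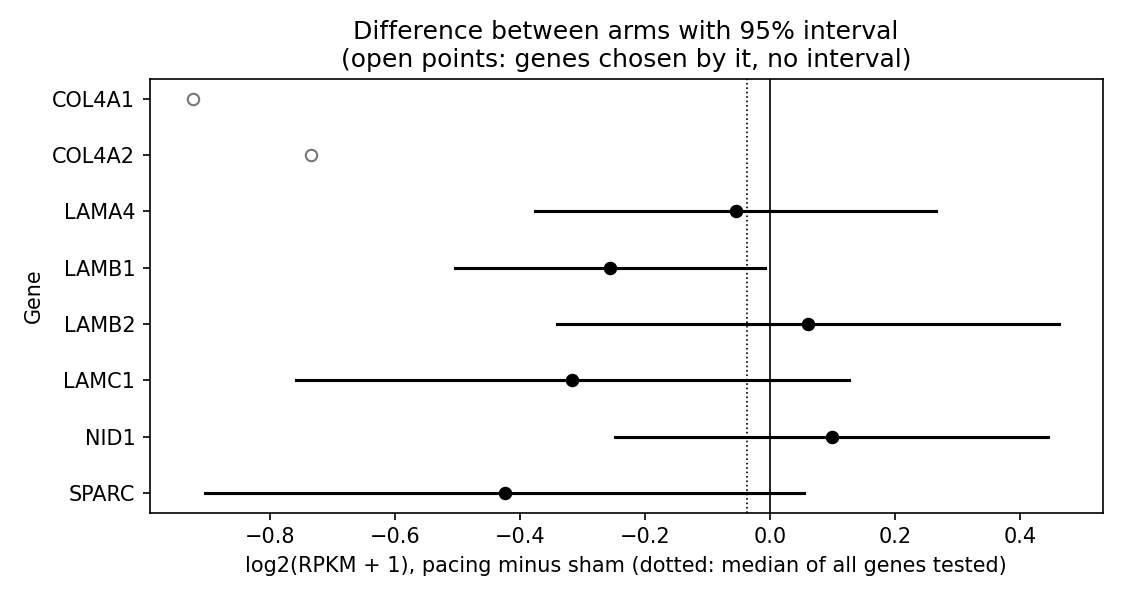
Differences between the arms on the log2(RPKM + 1) scale for the 8 genes above the filter, with 95% intervals from limma for the 6 genes that were not chosen by the difference. COL4A1 (-0.92) and COL4A2 (-0.73) lie lowest, the interval of LAMB1 ends just below 0, and the other intervals hold 0.

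Of the 6 tested genes that were listed by symbol, 0 passed over all genes with limma, where 0.0249% of 16090 genes passed. At an unadjusted p under 0.05 with limma there was 1 of the 6 (LAMB1), beside 1473 of all 16090 genes tested. With edgeR on recovered reads there were 0 of the 6, beside 1463 of 16090. Of these 6 genes 1 had every pacing library below every sham library, beside 11.3% of all genes tested, and 0 had every pacing library above, beside 4.92%.

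Across the 6 libraries the pattern of COL4A1 was most like C18H11orf84 (Pearson r of log2(RPKM + 1) = 0.999), CCDC175 (0.998), SPAG4, MIR144 and TMEM2 (0.994). That of COL4A2 was most like IFT172 (0.998), BNIPL (0.997), QSOX2, PPP1R16A and USP37 (0.994). Of these genes MIR144 was at 0 RPKM in every pacing library and at 1.47 ± 0.700 RPKM in sham. It thus passed the filter of a mean of 0.5 RPKM through its sham values alone, and lay near that filter. Its likeness to COL4A1 is not independent of the difference on which COL4A1 was chosen. COL4A2 was number 21 of 16089 genes by likeness to COL4A1 (r = 0.989), and COL4A1 was number 20 by likeness to COL4A2. SPARC (0.859), LAMC1 (0.789) and LAMB1 (0.651) were less like COL4A1, at number 1253, 2055 and 3699. The r with COL4A1 was -0.542 for NID1, -0.186 for LAMB2 and -0.103 for LAMA4. All of these r share the same 6 libraries and include the difference between the arms. For deviations from the arm means alone, r with COL4A1 was 0.927 for COL4A2, 0.892 for SPARC and 0.839 for LAMC1. It was -0.120 for LAMB2, -0.478 for LAMB1, -0.742 for NID1 and -0.747 for LAMA4. By these deviations COL4A2 was number 846 of 16089 genes in likeness to COL4A1, and COL4A1 number 615 in likeness to COL4A2.

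The counts of the lists that follow are read beside all 16090 genes tested, of which 9482 were lower and 6608 higher in pacing. Of 33 other components of basement membranes 27 were tested, 14 higher and 13 lower (median 0.01), 0 passed, and 2 were higher and 1 lower with no overlap of the arms, beside 4.92% and 11.3% of all genes. Fibronectin, FN1, had 4.003 ± 0.346 RPKM in pacing against 2.95 ± 0.479 in sham (limma adjusted p = 0.483), the fibulin FBLN2 at 2.91 ± 0.371 against 1.63 ± 1.15 (adjusted p = 0.543) and the laminin chain LAMB3 at 10.6 ± 1.85 against 8.26 ± 1.16 (adjusted p = 0.561). FBLN2 was at 2.96 RPKM in sham replicate 1, within the pacing range, and at 1.05 and 0.888 in sham replicates 2 and 3. Its log2 difference of 0.65 was 0.99 without sham replicate 1 (limma adjusted p = 0.0408) and -0.02 without sham replicates 2 and 3. Without sham replicate 1, 95 of 16083 genes passed with limma, beside 4 of 16090 over all libraries. For FN1 the difference of 0.35 was 0.15 without sham replicates 2 and 3. The collagen IV chain COL4A3, named after its values were seen, overlapped between the arms, at 7.45 to 25.6 RPKM in sham and 11.6 to 15.7 in pacing. Of 7 genes of the SPARC family 3 were higher and 4 lower (median -0.01), and 0 passed. SPOCK3 stood at 184 ± 10.6 against 235 ± 89.8 RPKM (adjusted p = 0.72), SPOCK2 at 73.4 ± 8.04 against 79.9 ± 11.4 (0.799) and SPOCK1 at 50.7 ± 5.36 against 47.5 ± 13.2 (0.868).

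Of 21 tested genes that modify, fold and export collagen 13 were lower and 8 higher (median -0.14), 6 were lower and 2 higher with no overlap of the arms (all genes, 11.3% and 4.92%), and 0 passed. SERPINH1, the collagen chaperone HSP47, stood at 1.54, 1.12 and 1.60 RPKM in pacing and at 2.08, 4.01 and 3.06 in sham (log2 difference -0.72, limma adjusted p = 0.378). The SERPINH1 difference was -0.90 without sham replicate 1 (limma adjusted p = 0.0675) and -0.35 without sham replicates 2 and 3. P3H3, of the prolyl 3-hydroxylase family, stood at 2.91 ± 0.311 against 4.51 ± 0.714 RPKM (-0.49, adjusted p = 0.378). The lysyl hydroxylase PLOD1 went the other way, at 20.7 ± 4.24 against 13.6 ± 0.540 RPKM (0.55, adjusted p = 0.384).

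Among enzymes that remodel matrix and their inhibitors, 19 of 28 tested genes were lower and 9 higher (median -0.08), 3 were lower with no overlap of the arms (all genes, 11.3%), and 0 passed. The plasminogen activator PLAU stood at 0.519 ± 0.0162 RPKM in pacing against 1.04 ± 0.431 in sham (limma adjusted p = 0.493) and its receptor PLAUR at 0.516 ± 0.172 against 1.65 ± 1.16 (adjusted p = 0.506). PLAUR was at 2.99 RPKM in sham replicate 2 and at 0.887 and 1.09 in sham replicates 1 and 3, and its log2 difference of -0.73 was -0.32 without sham replicates 2 and 3.

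Of 29 tested genes of angiogenic and TGF-beta signalling 21 were lower and 8 higher (median -0.11), 6 were lower and 1 higher with no overlap (all genes, 11.3% and 4.92%), and 0 passed. The matricellular TGF-beta target CTGF had 3.82 ± 0.421 RPKM in pacing against 7.36 ± 2.63 in sham (adjusted p = 0.429), the vessel-destabilising ligand ANGPT2 at 0.903 ± 0.0466 against 2.82 ± 1.55 (adjusted p = 0.455), and the signal transducer SMAD3 at 1.87 ± 0.120 against 1.19 ± 0.314 (adjusted p = 0.455). The log2 difference of CTGF was -0.75 over all libraries, -1.01 without sham replicate 1 (limma adjusted p = 0.0531) and -0.23 without sham replicates 2 and 3. ANGPT2 was at 1.17 RPKM in sham replicate 1 and at 4.25 and 3.02 in sham replicates 2 and 3. Its log2 difference of -0.91 was -1.27 without sham replicate 1 (limma adjusted p = 0.0313, where 95 of 16083 genes passed) and -0.19 without sham replicates 2 and 3.

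Of 25 tested genes of receptors and of proteins linked to them 14 were lower and 11 higher (median -0.01), and 0 passed. SGCB stood at 15.0 ± 0.921 RPKM in pacing against 18.6 ± 2.15 in sham (limma adjusted p = 0.516). The collagen receptor DDR1 was at 12.6 ± 0.548 against 14.8 ± 0.214 (adjusted p = 0.524) and the integrin chain ITGA2 at 7.37 ± 1.60 against 4.24 ± 4.08 (adjusted p = 0.597). ITGA2 was at 8.96 RPKM in sham replicate 1, above every pacing library, and at 1.83 and 1.95 in sham replicates 2 and 3. Its log2 difference of 0.92 was 1.52 without sham replicate 1 (limma adjusted p = 0.0363, where 95 of 16083 genes passed) and -0.27 without sham replicates 2 and 3. Of 13 tested interstitial collagens 8 were lower and 5 higher (median -0.02) and 0 passed, with COL5A2 at 26.6 ± 3.52 against 35.8 ± 5.43 RPKM (adjusted p = 0.48), COL6A1 at 3.44 ± 0.308 against 2.59 ± 0.415 (adjusted p = 0.529) and COL3A1 at 0.780 ± 0.148 against 1.17 ± 0.243 (adjusted p = 0.544).

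The miR-29 family is known to bind transcripts of collagens and other matrix genes, COL4A1 and SPARC among them. In the epicardial fat exosomes miR-29a stood at 9848 ± 2783 RPM (a library's reads brought to a common total) in pacing and 9565 ± 4733 in sham, miR-29c at 9306 ± 3568 against 11822 ± 4836 and miR-29b at 1995 ± 1055 against 1769 ± 434. The arms overlapped for all 3, which rest on 10 to 414 reads per library. None of the 3 passed with limma, where 0.955% of 314 entries passed (log2 difference 0.14, interval -0.98 to 1.26, for miR-29a; -0.34, -1.46 to 0.78, for miR-29c; 0.01, -1.39 to 1.40, for miR-29b; adjusted p = 0.986, 0.795 and 0.9996). None had an unadjusted p under 0.05 with limma or with edgeR, beside 19 and 9 of the 314 entries. Whether vesicle microRNA bears on hippocampal transcripts was not tested.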

How the data were processed

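Hippocampal mRNA libraries were made with a stranded kit, per the labels' protocols. Trimmomatic 0.36, STAR 2.5.3a and featureCounts were used, per the submitters' processing notes; no source used here gives the strand setting or the annotation release. The deposited hippocampal values are RPKM, and RPKM multiplied by the deposited summed exon length (another column of that table) gave whole reads. The deposited exosome values are RPM despite the name of their table, with no length term.

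Genes with a mean of at least 0.5 RPKM, and entries with a mean of at least 10 RPM, were tested on log2(value + 1) with limma-trend (limma 3.58.1, R 4.3.3) and Benjamini-Hochberg adjustment at 0.05 over all features tested. Differences are pacing minus sham. edgeR 4.0.16 on recovered reads was an alternative, as were other pseudocounts, filters, scalings, weights, a replicate block and leaving out each library; leaving out sham replicates 2 and 3 together was added after the data were seen. Members and lists were chosen with earlier results of these data known. Up to 3 genes of smallest p were named from each list, and the 5 genes with a symbol most like each collagen IV gene. A gene that the rule took is not reported here. All 10 symbols were matched to RefSeq's genes on UU_Cfam_GSD_1.0. No sequence was used here. Same-numbered samples were not treated as paired.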

Additional observations from a re-analysis of the deposited data

How the results depend on the processing

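Of 16090 hippocampal genes 4 passed with limma, 7 with no filter, 23 with library weights, 33 without sham replicates 2 and 3, and 3 to 95 when 1 library was left out (95 without sham replicate 1, 9 without sham replicate 2). The count without sham replicates 2 and 3 rests on the spread of the pacing libraries alone, as 1 sham library was left. It cannot be read beside the other counts, and no conclusion is drawn from it. With the replicate number as a block 7 passed. Same-numbered libraries correlated in their deviations at -0.11, 0.06 and -0.01, and other-numbered ones at -0.23 to 0.27. Such values cannot show whether samples were paired, which the labels do not state. The count of basement membrane genes that passed, among those listed by symbol, was 0 under every alternative that kept more than 1 library per arm. Of 150 tested genes of the pathway lists 0 passed. The count was 1 with a pseudocount of 0.1, a minimum of 2 RPKM (97 tested), quantile or median-of-ratios scaling, library weights or edgeR. Over all genes tested 5 passed in each of these settings, except 23 with library weights. The count of the pathway lists was 0 to 5 on leaving out 1 library (5 of 150 without sham replicate 1, where 95 of 16083 genes passed). COL4A1 ranged from -1.10 to -0.79 and COL4A2 from -0.86 to -0.67 on leaving out 1 library, and they were -0.56 and -0.49 without sham replicates 2 and 3; COL4A2 was -0.55 at a pseudocount of 5. Signs turned for LAMA4 (0.0036 with quantile scaling, 0.024 with library weights, -0.17 to 0.065 on leaving out 1 library), LAMB2 (-0.00097 relative to endothelial markers, -0.13 to 0.18 on leaving out 1 library) and, without sham replicates 2 and 3, for LAMB2 (-0.082), LAMC1 (0.023), NID1 (-0.17) and SPARC (0.0099); the cause was not tested. In exosomes 3 entries passed with limma, 0 with edgeR (9 at an unadjusted p under 0.05), and 2 to 7 on leaving out 1 library (6 without pacing replicate 1, 5 without sham replicate 2, 7 without sham replicate 3); over the same settings miR-29a ranged from -0.30 to 0.49, miR-29c from -0.70 to 0.034 and miR-29b from -0.32 to 0.58.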
